A study of Homo sapiens with 9 samples.

Results

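The transcriptomes of Huh7 cells treated with the BET inhibitor JQ1 and with the MAT2A inhibitor FIDAS-5 were compared with each other, without vehicle in the test. Huh7 is an established human hepatocellular carcinoma line, grown here in DMEM with 10% FBS. The comparison took 6 of the 9 libraries of the series: 3 from cells given 0.5 uM JQ1 and 3 from cells given 5 uM FIDAS-5, each for 48 h. Of 27800 gene symbols listed, the 13100 that reached 1 TPM (a transcript level scaled for length and library total) in at least 3 of these 6 libraries were tested. The vehicle-treated libraries are given only as a level beside the others, and the sample labels as read here record no treatment time for them. All libraries came from 1 cell line, each compound was given at 1 dose, the doses differ, and the compounds are not analogs, so every difference below belongs to these 2 treatments as given. Whether replicates came from separate cultures is not given in the labels. Their p-values rest on the spread among the 6 libraries alone, and that spread may be technical.

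BET proteins such as BRD2 and BRD3 bind acetylated histones through their bromodomains and help release paused RNA polymerase II, and JQ1 occupies those bromodomains. MAT2A makes S-adenosylmethionine, the methyl donor of histone, DNA and RNA methylation, and is the methionine adenosyltransferase of proliferating and tumour cells, while MAT1A is that of differentiated hepatocytes. Both compounds were compared at the same time, so the contrast asks which transcripts differ between these treatments in the same cells. Whether a difference follows from inhibition of BET proteins or of MAT2A was not tested.

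Of the 13100 genes, 4607 (35.2%) were called different at an adjusted p under 0.05 in limma's moderated test, of which 2143 (16.4% of all tested) were higher with JQ1 and 2464 (18.8%) were higher with FIDAS-5. The largest differences were mostly towards FIDAS-5: 258 called genes were at least 4-fold higher with FIDAS-5 and 71 were at least 4-fold higher with JQ1 on the scale of log2(TPM + 1). The log2 difference is JQ1 minus FIDAS-5 throughout, so negative values mean higher with FIDAS-5, and its median over all tested genes was 0.05. The 3 JQ1 values lay wholly above or wholly below the 3 FIDAS-5 values for 6315 genes (48.2%), and for 4603 of those called. The number of genes called higher with JQ1 depended on single libraries: it was 1319 without FIDAS-5 replicate 3, 1337 without JQ1 replicate 1 and 1175 without JQ1 replicate 2, and the total was 2987 without JQ1 replicate 2. With the replicate number as a block, 3523 genes were higher with JQ1 and 3225 were higher with FIDAS-5, and none of the calls shared between these settings changed direction.

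**Figure D1:**
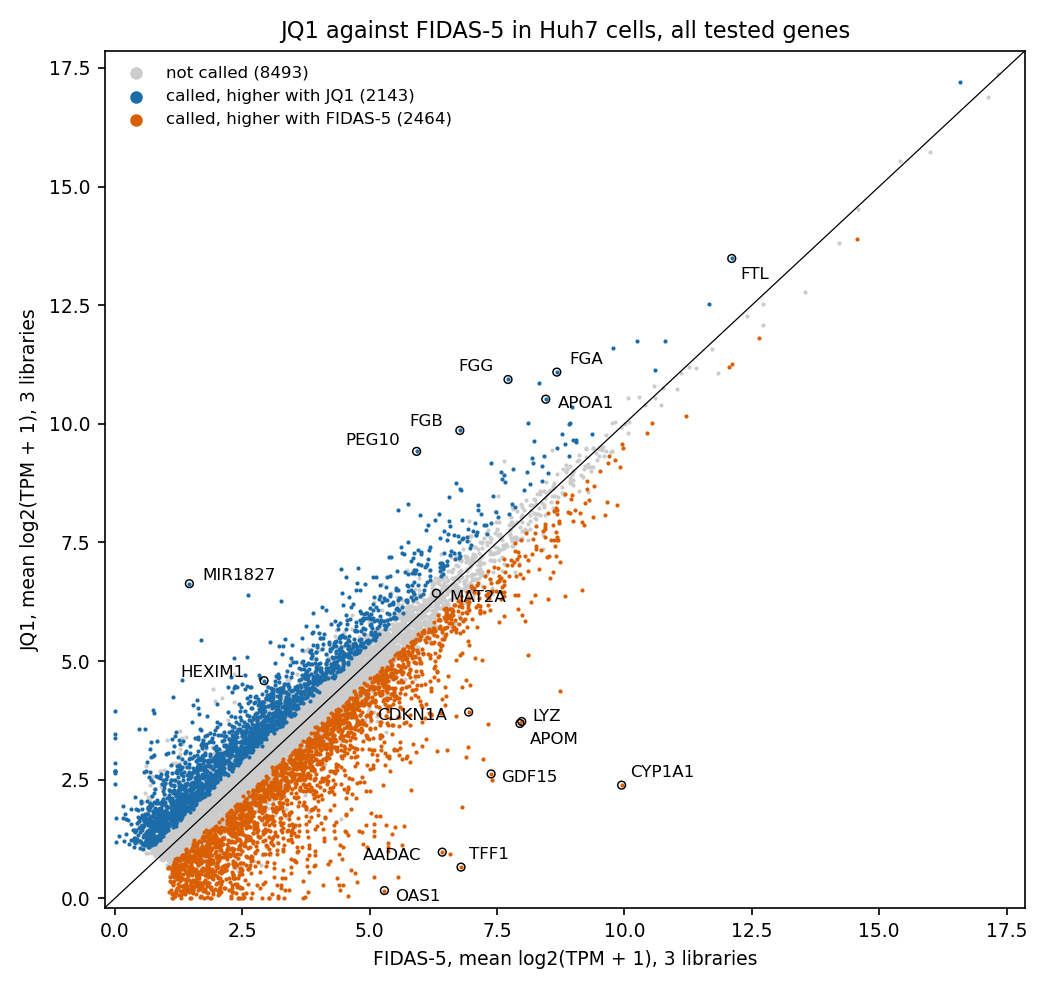
Mean log2(TPM + 1) of the 3 FIDAS-5 libraries (horizontal axis) and the 3 JQ1 libraries (vertical axis) for each of 13100 tested genes, with called genes in colour and the line of equality. Genes such as CYP1A1, TFF1 and OAS1 lie far below the line, and fibrinogen genes, PEG10 and MIR1827 lie above it.

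The share of protein-coding genes in the summed TPM ranged from 27.6 to 34.0% over the 6 libraries, and 12229 to 13014 genes reached 1 TPM. Symbols annotated as small structural RNA or microRNA held 38.2 to 47.7% with FIDAS-5, 32.2 to 38.4% with JQ1 and 42.2 to 57.8% with vehicle. The symbols MIR6723 and MIR4461 together held 22.7 to 28.9% with FIDAS-5 and 30.3 to 32.9% with JQ1. In vehicle replicates 1 to 3 they held 26.3, 8.74 and 18.4%, so the vehicle libraries differed widely among themselves. Within each group, replicate 3 departed from its group mean towards GC-rich transcripts (Spearman's rho across genes 0.567 for FIDAS-5 and 0.659 for JQ1) and replicate 1 towards AT-rich ones (-0.519 and -0.671), whereas the log2 difference itself had a rho with GC content of -0.0446. In bulk RNA, fewer cells of a type and less RNA per cell cannot be told apart.

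**Figure D2:**
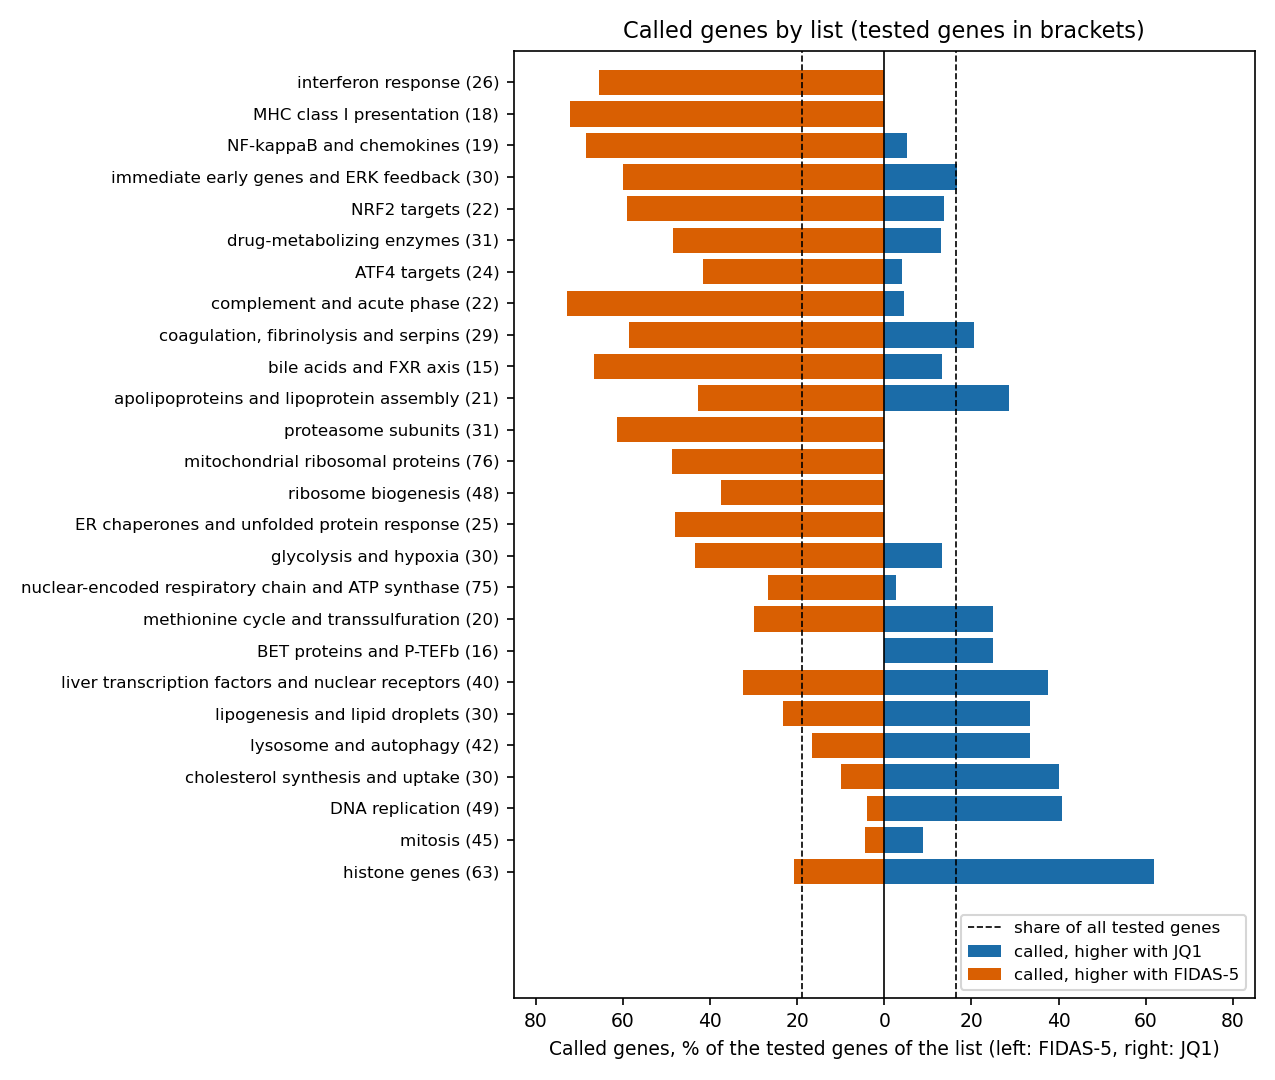
Share of the tested genes of each list that were called higher with FIDAS-5 (bars to the left) and with JQ1 (bars to the right), in percent, with the number of tested genes in brackets. Dashed lines mark the shares over all tested genes, 18.8% and 16.4%. Interferon, MHC class I, proteasome and mitochondrial ribosomal protein lists have bars on the FIDAS-5 side alone, and histone and DNA replication genes have most of theirs on the JQ1 side.

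The list counts below stand beside 18.8% of all tested genes higher with FIDAS-5 and 16.4% higher with JQ1. Several lists had no call in 1 direction. In limma's test with no adjustment, at p under 0.05, the count towards JQ1 was 0 in the interferon, MHC class I, proteasome, mitochondrial ribosomal, endoplasmic reticulum and heat shock lists and 1 in the ribosome biogenesis list, and the count towards FIDAS-5 was 0 in the BET list. With the replicate block and adjustment, 1 interferon and 1 endoplasmic reticulum gene were called towards JQ1 and 1 BET gene towards FIDAS-5. With each library's GC trend removed, the calls towards JQ1 were 2 in the mitochondrial ribosomal list and 1 each in the interferon, MHC class I, heat shock and ribosome biogenesis lists, and 1 BET gene was called towards FIDAS-5.

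MAT2A, the gene of the enzyme that FIDAS-5 inhibits, was not called. BRD3, the gene of a JQ1 target, and HEXIM1, the feedback gene of P-TEFb, were called. MAT2A was at 83.9, 67.6 and 84.8 TPM in FIDAS-5 replicates 1 to 3, 90.01, 93.9 and 73.1 TPM in JQ1 replicates 1 to 3 and 78.4, 108 and 100.01 TPM with vehicle. Its groups overlapped between the compounds and the log2 difference of 0.12 (95% interval -0.25 to 0.49) was not called (adjusted p = 0.595). MAT2B, the regulatory subunit, likewise missed the threshold (log2 difference 0.21, adjusted p = 0.620). MAT1A stood at 3.98 TPM ± 0.624 (SD, n = 3) with FIDAS-5 and 2.27 ± 0.130 with JQ1 and was called higher with FIDAS-5 (log2 difference -0.60, adjusted p = 0.0133).

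HEXIM1, which holds the elongation kinase P-TEFb inactive together with the RNA RN7SK and is a widely used readout of BET inhibition, was at 26.8, 24.7 and 18.4 TPM with JQ1, 8.05, 5.396 and 6.61 TPM with FIDAS-5 and 6.08, 6.33 and 6.06 TPM with vehicle. All 3 JQ1 libraries lay above all others, and the log2 difference was 1.66 (SE 0.20, adjusted p = 0.00148). BRD3 was also higher with JQ1 (0.93, adjusted p = 0.00370). BRD2 missed the threshold (adjusted p = 0.0943) and passed it with the replicate block (adjusted p = 0.0467). Of 16 tested genes of the BET and P-TEFb list, 4 were called higher with JQ1, SERTAD1 among them, and none higher with FIDAS-5; without JQ1 replicate 2 the count was 2, and SERTAD1 lost its call (adjusted p = 0.0513). CDK9 and CCNT1, the kinase and the cyclin of P-TEFb, had log2 differences of 0.19 and 0.01, neither called.

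MYC, a transcription factor whose gene is sensitive to BET inhibition in many cell types, was at 15.3, 9.88 and 13.2 TPM with FIDAS-5, 6.83, 8.06 and 6.49 with JQ1 and 9.39, 8.26 and 8.43 with vehicle. It was called higher with FIDAS-5 (log2 difference -0.75, adjusted p = 0.0206), but the adjusted p was 0.0538 without FIDAS-5 replicate 1, 0.0703 without FIDAS-5 replicate 3 and 0.0646 without JQ1 replicate 1. MYCN, its paralog, was called in the same direction, at 25.5 TPM ± 2.58 with FIDAS-5 and 13.5 ± 0.782 with JQ1, both below the 65.6 ± 14.3 of vehicle.

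The widest gap of all genes was in xenobiotic metabolism. The aryl hydrocarbon receptor (AHR) is a ligand-activated transcription factor that binds with ARNT to xenobiotic response elements and induces CYP1A1 and CYP1B1, monooxygenases of planar aromatic compounds, and TIPARP, a negative regulator of the receptor. CYP1A1 (chr15:74719542-74725528, build GRCh38.p14, minus strand) was at 1047, 945 and 964 TPM in FIDAS-5 replicates 1 to 3, 4.36, 4.32 and 4.004 TPM with JQ1 and 5.72, 5.13 and 4.37 TPM with vehicle. The FIDAS-5 libraries stood alone, while JQ1 and vehicle were at single-digit levels. The log2 difference was -7.56 (95% interval -7.81 to -7.31, adjusted p = 2.80e-06). CYP1A2, the neighbouring gene from the same duplication, was at 1.44 TPM ± 0.277 with FIDAS-5 and 1.84 ± 0.530 with JQ1 and was not called.

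The core of the xenobiotic response element is GCGTG. The window from 250 bases before to 50 bases after the RefSeq start of CYP1A1 (chr15:74725479-74725778, GRCh38.p14, minus strand) is shown because this gene leads the comparison; capitals mark its 1 match to the core, searched on both strands.
CYP1A1: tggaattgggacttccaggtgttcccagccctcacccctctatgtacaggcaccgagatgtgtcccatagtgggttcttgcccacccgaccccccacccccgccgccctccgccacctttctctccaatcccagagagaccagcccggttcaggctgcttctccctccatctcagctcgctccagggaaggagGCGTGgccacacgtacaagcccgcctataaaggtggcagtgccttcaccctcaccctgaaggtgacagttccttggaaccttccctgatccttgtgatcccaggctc
The 5 letters are common: 58.2% of 9831 tested genes with such a window, and 4 of 6 in the AHR list, held at least 1 match. Whether the receptor binds the match in CYP1A1 was not tested.

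CYP1B1 was at 36.2, 21.3 and 15.5 TPM with FIDAS-5, 0.0516, 0.0746 and 0 with JQ1 and 0.176, 0.117 and 0.114 with vehicle (log2 difference -4.52, adjusted p = 1.79e-04). TIPARP was at 72.2, 50.8 and 50.4 TPM with FIDAS-5, 25.1, 20.9 and 15.1 with JQ1 and 8.32, 9.12 and 8.497 with vehicle, so that vehicle was the lowest of the 3 groups for this gene (log2 difference -1.47, adjusted p = 0.00440). Of the 11 genes of the AHR list, 7 were tested: 4 were called higher with FIDAS-5, ARNT alone was called higher with JQ1 (0.82), and AHR itself (-0.17) and CYP1A2 were not called. AHRR, NQO1, ALDH3A1 and UGT1A6 did not pass the filter on low values.

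Other detoxification genes were also mostly higher with FIDAS-5. Aldo-keto reductases reduce carbonyls and steroids, and 5 of 7 tested were higher with FIDAS-5. AKR1C1 was at 274, 266 and 289 TPM with FIDAS-5, 35.5, 33.6 and 32.9 with JQ1 and 27.9, 35.8 and 28.2 with vehicle, and AKR1C2 had a log2 difference of -2.41. These 2 genes are near-identical neighbours, so how reads were shared between them is uncertain. AKR7A2 was the member called higher with JQ1 (1.39). NRF2, encoded by NFE2L2, is the transcription factor of the antioxidant response, and 13 of 22 of its tested targets were higher with FIDAS-5 and 3 with JQ1 (median log2 difference -0.81). Those higher with FIDAS-5 included the transporter ABCC2 (-2.42), PIR (-2.01), the malic enzyme ME1 (66.4 TPM against 16.04 TPM with JQ1) and the cystine carrier SLC7A11 (-1.67). Those higher with JQ1 were both ferritin genes, FTL (4425 TPM with FIDAS-5, 11456 TPM with JQ1) and FTH1 (3244 and 5904 TPM), and HMOX1 (0.40); the last lost its call when any 1 library but FIDAS-5 replicate 1 was left out (adjusted p from 0.0678 to 0.126). NFE2L2 itself was not called (-0.31).

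Of 47 drug-metabolizing enzymes listed, 31 were tested, 15 were higher with FIDAS-5 and 4 with JQ1; the latter number was 2 without JQ1 replicate 2, and 7 without JQ1 replicate 3 and with the replicate block. AADAC, an arylacetamide deacetylase, was at 102, 93.8 and 63.9 TPM with FIDAS-5, 1.103, 1.29 and 0.572 with JQ1 and 32.3, 51.2 and 40.5 with vehicle. NAT8, an acetyltransferase of cysteine conjugates, was at 106, 81.8 and 95.9 TPM with FIDAS-5, 0.788, 0.949 and 1.03 with JQ1 and 20.9, 22.4 and 20.4 with vehicle. Both were far lower with JQ1 than with vehicle and higher with FIDAS-5, with log2 differences of -5.45 and -5.63 between the compounds. UGT1A1, the bilirubin glucuronosyltransferase, was at 13.6, 10.2 and 12.1 TPM with FIDAS-5 and listed at 0, 0.0282 and 0 TPM with JQ1; its first exon is its own and the rest is shared with other UGT1A genes, so its split is uncertain. NNMT, which consumes S-adenosylmethionine to methylate nicotinamide, was at 4.58, 4.396 and 4.14 TPM with FIDAS-5, 2.43, 3.31 and 2.34 with vehicle and was listed at 0 in all 3 JQ1 libraries. In the other direction, the epoxide hydrolase EPHX1 was at 425, 429.8 and 433 TPM with JQ1, 112, 92.4 and 105 with FIDAS-5 and 54.1, 49.6 and 51.99 with vehicle (log2 difference 2.05, adjusted p = 1.16e-04).

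**Figure D3:**
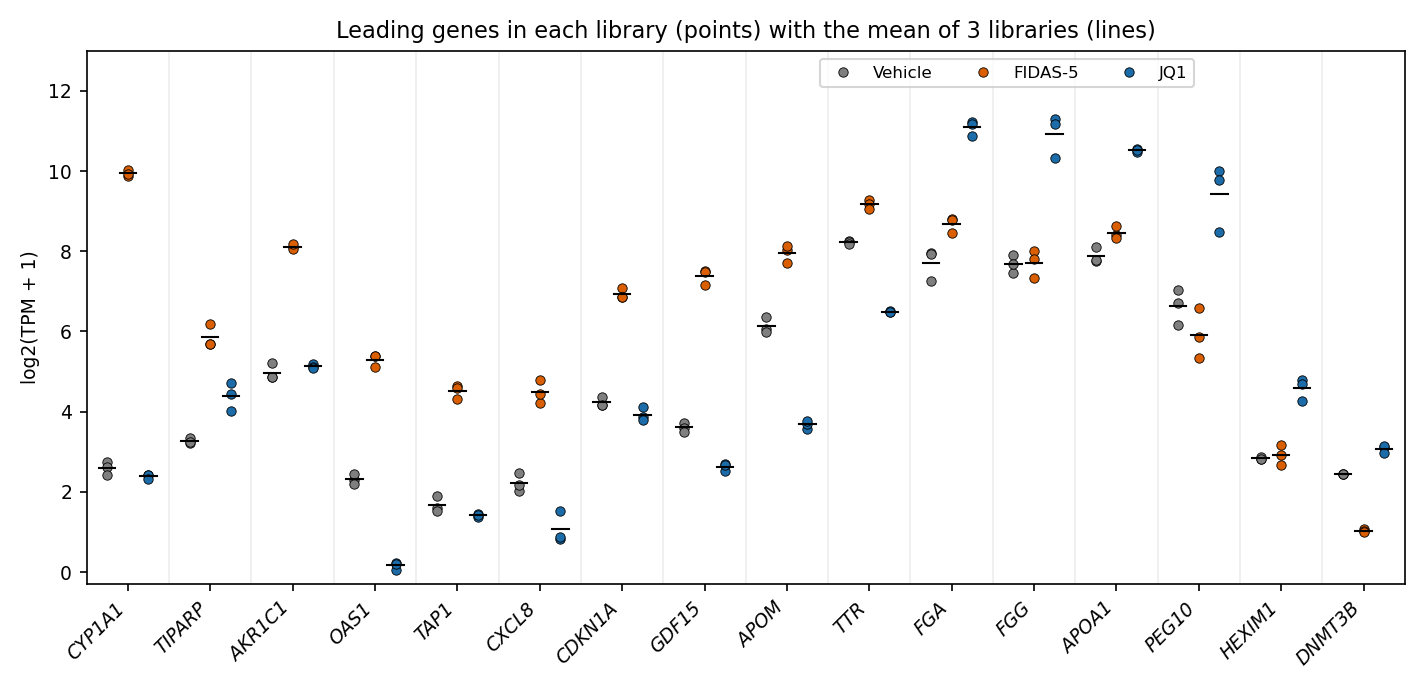
log2(TPM + 1) of 16 genes in each vehicle, FIDAS-5 and JQ1 library (points), with the mean of 3 libraries (short lines). FIDAS-5 is highest for CYP1A1 to TTR, JQ1 is highest for FGA to DNMT3B, and vehicle lies close to JQ1 for CYP1A1 and AKR1C1 and close to FIDAS-5 for FGG and HEXIM1.

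Interferon-stimulated genes were lower with JQ1 than with FIDAS-5 and none was called in the other direction. Interferons act through STAT2, IRF9 and their partners on the interferon-stimulated response element. Of 45 genes listed, 26 were tested and 17 were called higher with FIDAS-5 (median log2 difference -1.32, against 0.05 over all genes). OAS1, an RNA sensor that makes oligoadenylates, was at 40.8, 33.4 and 40.6 TPM with FIDAS-5, 0.172, 0.0422 and 0.152 with JQ1 and 3.91, 4.49 and 3.62 with vehicle (log2 difference -5.12, adjusted p = 2.68e-05). OAS3 was at 23.9, 15.2 and 23.2 TPM with FIDAS-5, 1.45, 1.17 and 0.953 with JQ1 and 7.71, 5.32 and 6.07 with vehicle (-3.29). In both genes the vehicle libraries lay between the treatments. UBE2L6, the conjugating enzyme for ISG15, differed by -3.22, IFITM3, a restriction factor of viral entry with close relatives, by -3.65, and the GTPases MX1 and GBP2 by -1.80 and -2.60. IRF9 differed by -2.10 and IRF1 by -1.45, whereas STAT2 (0.21) was not called. IFIT1, IFIT2, IFIT3, IFI44 and 15 other listed genes did not pass the filter on low values.

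MHC class I presentation followed the same direction in 13 of 18 tested genes, with none higher with JQ1. TAP1, which carries peptides into the endoplasmic reticulum, was at 23.8, 18.9 and 23.1 TPM with FIDAS-5, 1.61, 1.75 and 1.67 with JQ1 and 2.71, 2.05 and 1.86 with vehicle (log2 difference -3.09, adjusted p = 4.38e-05). Its partner TAP2 differed by -2.44, and the immunoproteasome subunits PSMB8 and PSMB9 by -2.61 and -2.33. These 4 genes lie side by side on chromosome 6 (TAP2 from 32821831, PSMB9 to 32859851, GRCh38.p14), while PSMB8-AS1 between them was not called (-0.06). NLRC5, the transactivator of class I genes, was at 1.796 TPM ± 0.141 with FIDAS-5 and 0.223 ± 0.0448 with JQ1. The class I heavy chain HLA-E (-0.02) and the light chain B2M (-0.24) were not called. Heavy chain genes share much sequence. HLA-C was called (-0.62), but not without FIDAS-5 replicate 1, FIDAS-5 replicate 3 or JQ1 replicate 1 (adjusted p from 0.0533 to 0.0685).

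The start windows of TAP1 (chr6:32853655-32853954, minus strand) and OAS3 (chr12:112938224-112938523, plus strand; both GRCh38.p14) are shown as examples of called genes of these lists whose windows hold the letters GAAANNGAAA, a form of the interferon-stimulated response element. Capitals mark the matches on either strand, and the 2 in TAP1 overlap. A second RefSeq start window of TAP1 (chr6:32852712-32853011), not printed, holds no match, and the window of IFITM3 holds 2.
TAP1: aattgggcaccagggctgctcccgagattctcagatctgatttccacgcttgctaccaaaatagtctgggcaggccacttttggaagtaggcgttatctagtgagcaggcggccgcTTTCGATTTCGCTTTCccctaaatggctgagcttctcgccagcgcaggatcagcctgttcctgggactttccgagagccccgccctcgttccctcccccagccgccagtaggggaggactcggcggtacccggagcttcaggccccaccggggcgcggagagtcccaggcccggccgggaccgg
OAS3: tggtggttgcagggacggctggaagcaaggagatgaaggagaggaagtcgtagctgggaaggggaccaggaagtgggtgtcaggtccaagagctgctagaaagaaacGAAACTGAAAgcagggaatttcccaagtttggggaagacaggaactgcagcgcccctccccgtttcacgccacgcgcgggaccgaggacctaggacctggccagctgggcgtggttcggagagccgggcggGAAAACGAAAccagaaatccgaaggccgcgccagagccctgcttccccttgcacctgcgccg
Among 22 tested interferon genes with such a window, 14 (63.6%) held a match, beside 3.9% of 9831 tested genes. The windows of OAS1 and PSMB9 are without these letters.

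NF-kappaB targets and chemokines were called higher with FIDAS-5 in 13 of 19 tested genes and higher with JQ1 in 1. ICAM1, a leukocyte adhesion molecule, was at 43.1, 33.5 and 40.9 TPM with FIDAS-5, 1.93, 2.15 and 1.68 with JQ1 and 19.1, 12.1 and 14.1 with vehicle (log2 difference -3.78). The neutrophil chemokine CXCL8 was at 26.5, 17.7 and 20.9 TPM with FIDAS-5, 0.768, 1.87 and 0.830 with JQ1 and 4.58, 3.05 and 3.54 with vehicle (-3.41). CCL20 (-3.74), CXCL5 (-3.47) and CXCL1 (-2.25) went the same way, as did the subunits NFKB2 (-2.06) and RELB (-1.59). RELA (-0.02) and NFKB1 (-0.23) were not called, nor was the inhibitor NFKBIA (-0.42) except with the replicate block (adjusted p = 0.0264). NFKBIZ, an atypical inhibitor of the IkappaB family, was the gene higher with JQ1, at 64.1, 61.8 and 36.9 TPM against 31.3, 25.4 and 21.4 TPM with FIDAS-5, a call lost without FIDAS-5 replicate 2, FIDAS-5 replicate 3, JQ1 replicate 1 or JQ1 replicate 2 (adjusted p from 0.0751 to 0.0897).

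Immediate early genes and feedback regulators of the ERK pathway split by gene: 18 of 30 tested were higher with FIDAS-5 and 5 with JQ1, the latter being 3 without FIDAS-5 replicate 3 and 2 without JQ1 replicate 1 or 2. The ERK-induced factor ETV4 was at 108, 94.4 and 105 TPM with FIDAS-5, 12.3, 13.7 and 13.9 with JQ1 and 105, 64.9 and 87.8 with vehicle, and the feedback inhibitors SPRY4 (-2.75), DUSP5 (-2.18) and DUSP6 (-2.13) had the same sign. In ETV4 and DUSP6 the FIDAS-5 and vehicle means were close (102 and 85.9 TPM, 34.7 and 30.3 TPM). Members of the AP-1 family differed in direction: FOSL1 (-2.25), FOS (-1.98) and JUNB (-1.87) were higher with FIDAS-5, whereas JUND was at 152, 146 and 141 TPM with JQ1, 44.5, 38.5 and 42.5 with FIDAS-5 and 33.7, 15.8 and 27.1 with vehicle (1.79). JUN (0.34) and ATF3 (-0.32) were not called. Of the KLF genes listed, KLF4 (-2.14) and KLF10 (-1.29) were higher with FIDAS-5 and KLF2 (1.71) higher with JQ1.

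Secreted liver proteins did not move as a block. All 3 fibrinogen chains, the precursors of the fibrin clot, were far higher with JQ1. FGA was at 2381, 2313 and 1874 TPM with JQ1, 444, 348 and 437 with FIDAS-5 and 152, 247 and 242 with vehicle (log2 difference 2.42, adjusted p = 1.86e-04). FGB was at 1169, 1083 and 631 TPM with JQ1, 133, 114 and 83.3 with FIDAS-5 and 80.7, 107 and 102 with vehicle (3.09, adjusted p = 6.33e-04). FGG was at 2519, 2299 and 1289 TPM with JQ1, 258, 223 and 159 with FIDAS-5 and 176, 239 and 204 with vehicle (3.22, adjusted p = 6.75e-04). JQ1 replicate 3 was the lowest JQ1 library for each chain and still lay above every other library. The 3 genes form a cluster on chromosome 4 (FGB from 154562980, FGG to 154612656, GRCh38.p14), and their tested neighbour PLRG1 was not called (0.23).

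Most other coagulation genes went the other way. Of 29 tested coagulation, fibrinolysis and serpin genes, 17 were higher with FIDAS-5 and 6 with JQ1 (median -0.86). Higher with FIDAS-5 were CPB2, a carboxypeptidase that slows clot lysis (38.5, 35.4 and 25.9 TPM, against 1.86, 2.1997 and 1.06 with JQ1), antithrombin SERPINC1 (-2.51), prothrombin F2 (-2.41), F11 (-1.90) and protein C, PROC (-1.49). Higher with JQ1 were SERPINA1, alpha-1-antitrypsin, at 2996, 3185 and 3120.2 TPM against 939, 863 and 831 with FIDAS-5, the plasmin inhibitor SERPINF2 (2.09), F10 (1.17) and SERPINA5 (0.97).

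Complement and acute phase genes were higher with FIDAS-5 in 16 of 22 tested (median -1.42), and haptoglobin HP alone was called higher with JQ1 (1.20). The acute phase glycoprotein ORM1 was at 31.8, 26.6 and 30.1 TPM with FIDAS-5, 3.29, 4.81 and 3.41 with JQ1 and 62.3, 70.4 and 64.4 with vehicle, so vehicle was the highest group. Complement C3 was at 99.9, 54.4 and 93.7 TPM with FIDAS-5, 22.99, 22.9 and 23.6 with JQ1 and 89.6, 36.98 and 51.3 with vehicle (-1.74). C1S (-2.20), C8A (-2.16) and CFI (-1.96) had the same sign. Among plasma carriers, transthyretin TTR was at 617, 579 and 529.6 TPM with FIDAS-5, 88.9, 89.6 and 89.3 with JQ1 and 307, 300.4 and 287 with vehicle (log2 difference -2.67, adjusted p = 4.38e-05). Albumin, ALB, was instead at 4605, 4301 and 2040. TPM with JQ1, 1552, 1368 and 826 with FIDAS-5 and 953, 1591 and 1184 with vehicle (1.51, adjusted p = 0.0258), with JQ1 above both; its call was lost without FIDAS-5 replicate 2, FIDAS-5 replicate 3, JQ1 replicate 1 or JQ1 replicate 2 (adjusted p from 0.0731 to 0.0903). AFP, the fetal albumin relative, was called only with the replicate block (0.46, adjusted p = 0.0149).

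Apolipoproteins divided within the family. APOM, which carries sphingosine phosphate on HDL, was at 259, 278 and 207 TPM with FIDAS-5, 10.9, 12.04 and 12.7 with JQ1 and 65.9, 80.9 and 62.7 with vehicle (log2 difference -4.26, adjusted p = 3.67e-05). APOA1, the main protein of HDL, was at 1423, 1494 and 1479 TPM with JQ1, 338, 393 and 323 with FIDAS-5 and 216, 274 and 221 with vehicle (2.06, adjusted p = 1.24e-04). In both the groups were far apart, in opposite directions. Of 21 tested, 9 were higher with FIDAS-5, APOC2 (-2.49) and APOC1 (-1.30) among them, and 6 higher with JQ1, with APOE at 239.5 TPM ± 20.7 against 134 ± 8.59. APOA2 was not called (-0.05), and APOB, the protein of LDL (1.59, adjusted p = 0.0833), was called only with the replicate block (adjusted p = 6.13e-05).

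**Figure D4:**
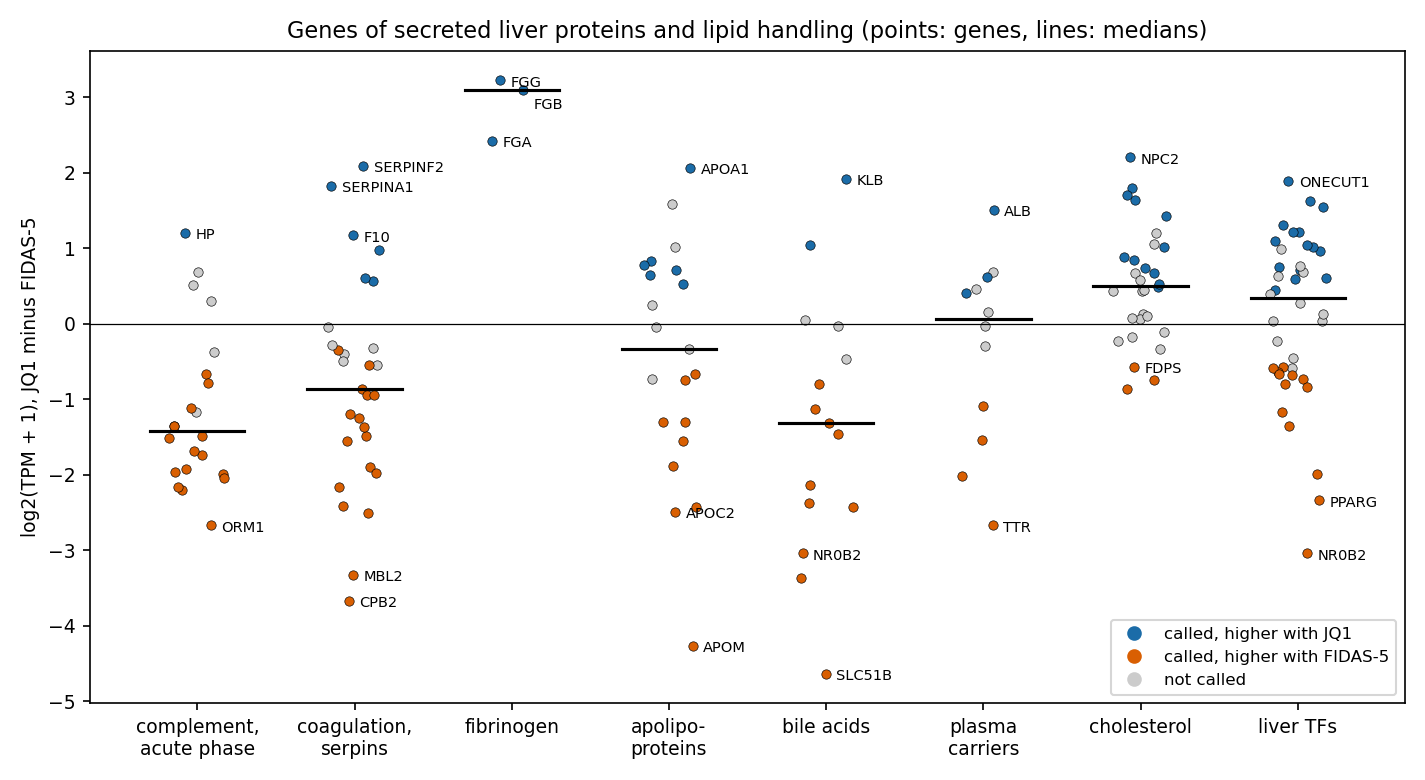
Difference in mean log2(TPM + 1), JQ1 minus FIDAS-5, for each tested gene (points, spread sideways at random) of 8 liver gene lists, with the median of each list (lines). Fibrinogen genes lie between 2.42 and 3.22, complement and bile acid genes mostly below 0 with medians of -1.42 and -1.32, and cholesterol genes mostly above 0 with a median of 0.50.

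Bile acid handling was lower with JQ1 in 10 of 15 tested genes (median -1.32). SLC51B, a subunit of the basolateral bile acid exporter, was at 34.2, 28.8 and 35.9 TPM with FIDAS-5, 0.527, 0.238 and 0.337 with JQ1 and 16.6, 29.1 and 23.97 with vehicle (log2 difference -4.63). NR0B2 (SHP), the repressor induced by the bile acid receptor FXR, differed by -3.04, the side-chain oxidase ACOX2 by -3.37 and the hormone FGF19 by -2.37. FXR itself, NR1H4, was highest in vehicle (58.5 TPM) and higher with FIDAS-5 (32.5) than with JQ1 (18.3), with an adjusted p of 0.0646 without FIDAS-5 replicate 1, 0.0644 without FIDAS-5 replicate 2 and 0.0743 without JQ1 replicate 2. The FGF19 receptor FGFR4 (1.04) and its co-receptor KLB (91.1, 80.4 and 39.4 TPM with JQ1, 21.4, 16.04 and 13.7 with FIDAS-5) were the 2 genes higher with JQ1.

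Cholesterol synthesis and uptake leaned towards JQ1, with 12 of 30 tested genes higher with JQ1 and 3 higher with FIDAS-5 (median 0.50). The sterol reductase TM7SF2 (1.80), the cyclase LSS (1.64), the sterol sensor INSIG1 (1.70) and the lysosomal carrier NPC2 (2.20) were among the largest. The count towards JQ1 was 7 without JQ1 replicate 1 or 2, and that towards FIDAS-5 was 1 without JQ1 replicate 2.

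In fat storage, 10 of 30 tested genes were higher with JQ1 and 7 with FIDAS-5. The triglyceride synthases DGAT1 (1.68) and DGAT2 (1.72), the lipase PNPLA2 (1.39), the fatty acid synthase FASN (1.27) and the desaturase SCD (1.09) were higher with JQ1. Lipid droplet coat genes were higher with FIDAS-5: CIDEC was at 27.5, 26.1 and 24.3 TPM with FIDAS-5, 0.175, 0.421 and 0.213 with JQ1 and 1.54, 1.62 and 0.839 with vehicle, PLIN2 differed by -1.09 and PLIN3 by -1.91, while PLIN5 went the other way (0.86). Fatty acid oxidation and ketogenesis had 8 of 31 genes higher with FIDAS-5, among them the fatty acid carrier FABP1 (383, 434 and 288 TPM, against 83.3, 99.6 and 57.4 with JQ1), and 6 higher with JQ1. Those 6 were 3 without FIDAS-5 replicate 1 and 1 without FIDAS-5 replicate 3, JQ1 replicate 1 or JQ1 replicate 2. Over all tested genes, 18.8% were higher with FIDAS-5 and 16.4% with JQ1.

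Gluconeogenesis, urea cycle and amino acid catabolism had 9 of 24 tested genes higher with FIDAS-5, among them the histidase HAL (-2.74), arginase ARG1 (-2.20) and FAH of tyrosine breakdown (-1.65). Of the 5 higher with JQ1, GLUD1, glutamate dehydrogenase, was at 397, 376 and 293 TPM with JQ1 and 97.7, 95.2 and 88.6 with FIDAS-5; the number was 3 without FIDAS-5 replicate 2 or JQ1 replicate 2 and 2 without FIDAS-5 replicate 3. Glycolysis and hypoxia genes were higher with FIDAS-5 in 13 of 30 tested, including PFKM (-1.73), PKM (-1.34), LDHA (-1.28) and ALDOA (-1.23). The 4 higher with JQ1 were P4HA2 (0.81), NDRG1 (0.47), PFKL (0.40) and ENO2 (0.39), and that number was 1 without FIDAS-5 replicate 1 or 3 or without JQ1 replicate 1 or 2, when P4HA2 alone kept its call. PFKL also lost its call without JQ1 replicate 3 (adjusted p = 0.0566). For LDHA the vehicle mean of 599 TPM lay above both FIDAS-5 (357) and JQ1 (147). GAPDH (-0.30) and HIF1A (-0.06) were not called.

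Liver transcription factors and nuclear receptors differed often, 28 of 40 tested, in both directions: 15 were higher with JQ1 and 13 with FIDAS-5. Higher with JQ1 were ONECUT1 (36.9, 29.2 and 14.7 TPM against 9.26, 5.501 and 4.34), FOXA1 (1.62), NR2F2 (1.55), CEBPA (1.22), NR5A2 (1.21) and HNF4A (0.59). The call of ONECUT1 was lost without FIDAS-5 replicate 2 (adjusted p = 0.0553), and that of HNF4A without FIDAS-5 replicate 3 or JQ1 replicate 1 or 2 (0.0520, 0.0562 and 0.0658). Higher with FIDAS-5 were PPARG (75.9, 78.2 and 65.8 TPM against 14.8, 14.3 and 11.9 with JQ1), the lipid-responsive factor CREB3L3 (-1.99), the xenobiotic receptors NR1I2 (-1.35) and NR1I3 (-1.17) and CEBPB (-0.68).

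The proteasome degrades ubiquitin-tagged proteins; 19 of its 31 tested subunits were higher with FIDAS-5 and none higher with JQ1 (median -0.66), and the count was 11 without FIDAS-5 replicate 1. The ATPase subunit PSMC4 was at 216, 168 and 215 TPM with FIDAS-5, 59.9, 62.7 and 60.5 with JQ1 and 143, 141 and 139 with vehicle (-1.69). The calls covered 9 of 14 core subunits, such as the catalytic PSMB5 (-1.21) and PSMB6 (-1.21), and 10 of 17 subunits of the regulatory particle. Summed over the 14 core genes, the libraries held 2080, 1775 and 1776 TPM with FIDAS-5, 1250, 1253 and 995 with JQ1 and 1739, 1999 and 1831 with vehicle.

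Mitochondrial ribosomal proteins, which translate the few proteins encoded in mitochondrial DNA, were higher with FIDAS-5 in 37 of 76 tested genes and higher with JQ1 in none (median -0.45). The large subunit had 27 of 48 called and the small subunit 10 of 28. MRPS12 (-1.35), MRPS18C (-1.21), MRPS15 (-1.18) and MRPL32 (-1.15) had the largest differences. MRPL11 was at 126, 119 and 104 TPM with FIDAS-5, 57.4, 60.4 and 57.7 with JQ1 and 245, 271 and 218 with vehicle, so both compounds were below vehicle for this gene. Of 75 respiratory chain and ATP synthase genes, 20 were higher with FIDAS-5 and 2 with JQ1. The 20 became 10 without JQ1 replicate 1, 11 without FIDAS-5 replicate 2 or 3 and 13 without JQ1 replicate 2.

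Ribosome biogenesis factors, which make and process ribosomal RNA in the nucleolus, were higher with FIDAS-5 in 18 of 48 tested genes and with JQ1 in none (median -0.53). With the replicate block the count was 30, and it was 11 without FIDAS-5 replicate 3 and 10 without JQ1 replicate 2. NOP16 was at 12.9, 10.8 and 11.8 TPM with FIDAS-5, 4.94, 4.88 and 4.48 with JQ1 and 14.5, 18.5 and 14.3 with vehicle. UTP14A of the small subunit processome (-1.04), RRP12 (-0.99) and the methyltransferase NOP2 (-0.95) followed, whereas nucleolin NCL (-0.06) and NPM1 (0.17) were not called. Cytosolic ribosomal protein genes were mostly not called, with 10 of 82 higher with FIDAS-5 and 7 with JQ1; their many pseudogenes make their values uncertain. On leaving out single libraries these counts ranged from 2 to 7 and from 2 to 8.

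Many ribosome biogenesis promoters hold the E-box CACGTG, which MYC and its relatives bind. UTP14A is shown as the member with such a match and the smallest adjusted p (chrX:129905914-129906213, GRCh38.p14, plus strand), with the match in capitals.
UTP14A: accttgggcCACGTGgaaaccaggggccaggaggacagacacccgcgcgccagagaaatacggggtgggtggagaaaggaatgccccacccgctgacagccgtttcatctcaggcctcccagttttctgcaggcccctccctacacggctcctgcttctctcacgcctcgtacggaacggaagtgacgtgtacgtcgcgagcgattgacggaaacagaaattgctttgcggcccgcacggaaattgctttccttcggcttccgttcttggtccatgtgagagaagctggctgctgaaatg
The E-box was in the window of 19 of 40 list members that have one (47.5%), beside 12.6% of 9831 tested genes.

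Chaperone and unfolded protein response genes of the endoplasmic reticulum were higher with FIDAS-5 in 12 of 25 tested and in none with JQ1. Among the 12 were SELENOS (-1.09), MANF (-0.99) and XBP1 (374 TPM ± 21.97 against 187 ± 4.48), the transcription factor of the unfolded protein response. This count was 5 without FIDAS-5 replicate 1 or JQ1 replicate 2, 6 without FIDAS-5 replicate 3 and 19 with the replicate block. Small heat shock proteins stood apart from the other cytosolic chaperones: HSPB8 was at 57.3, 40.2 and 53.6 TPM with FIDAS-5, 1.705, 1.95 and 1.94 with JQ1 and 8.43, 9.03 and 7.89 with vehicle, HSPB1 differed by -2.28, and CRYAB was at 5.54, 4.24 and 4.39 TPM with FIDAS-5 and listed at 0 in all 3 JQ1 libraries. Of 24 tested heat shock genes, 4 (16.7%) were called, all higher with FIDAS-5 (8 with the replicate block). This share was below the 18.8% of all tested genes called higher with FIDAS-5. The fourth, HSP90AB1 (-0.47), lost its call when any 1 of 5 libraries was left out (adjusted p from 0.0793 to 0.138), and remained called without FIDAS-5 replicate 2. HSPA1A (-0.02) and HSPA8 (-0.33) were not called.

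Stress-response genes separated by pathway member. Of 24 tested ATF4 targets, the genes of the amino acid response, 10 were higher with FIDAS-5 and 1 with JQ1. GDF15, a stress cytokine, was at 179.9, 142 and 179 TPM with FIDAS-5, 5.48, 4.6996 and 5.31 with JQ1 and 12.2, 11.1 and 10.3 with vehicle (log2 difference -4.76, adjusted p = 2.76e-05). NUPR1 (-2.45), TRIB3 (-2.31) and STC2 (-1.78) had the same sign, while ASNS (0.03), DDIT3 (0.22) and ATF4 (-0.35) were not called. Of 16 tested p53 targets, 3 were higher with FIDAS-5 and 4 with JQ1, beside 18.8% and 16.4% of all tested genes. The count towards JQ1 was 2 without FIDAS-5 replicate 2 and 1 without FIDAS-5 replicate 3 or JQ1 replicate 2. CDKN1A, the cyclin-dependent kinase inhibitor p21, was at 135, 116 and 116 TPM with FIDAS-5, 13.6, 16.3 and 12.9 with JQ1 and 16.9, 19.6 and 17.01 with vehicle (log2 difference -3.02, adjusted p = 5.38e-05). MDM2 (-0.39) and BAX (0.12) were not called, and the repair factor XPC was higher with JQ1 (1.20).

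DNA replication genes were higher with JQ1 than with FIDAS-5 in 20 of 49 tested and lower in 2 (median 0.45); the 20 became 12 without JQ1 replicate 2, and the 2 became 0 without any 1 library but FIDAS-5 replicate 2. Thymidine kinase TK1 was at 49.7, 49.1 and 51.2 TPM with JQ1, 22.8, 19.1 and 18.2 with FIDAS-5 and 46.6, 44.8 and 47.6 with vehicle (1.29, adjusted p = 6.43e-04). The polymerase POLE (1.33), the clamp loader subunit RFC2 (1.12) and the chromatin assembly subunits CHAF1B (1.39) and ASF1B (1.15) were the other largest. Of the replicative helicase MCM2 to MCM7, MCM5 (0.73), MCM7 (0.60) and MCM2 (0.52) were higher with JQ1, and MCM3 (-0.47) was higher with FIDAS-5. MCM7 lost its call without JQ1 replicate 2 (adjusted p of 0.0536), MCM2 without FIDAS-5 replicate 3, JQ1 replicate 1 or JQ1 replicate 2 (adjusted p from 0.0672 to 0.0963), and MCM3 without FIDAS-5 replicate 1, FIDAS-5 replicate 3, JQ1 replicate 1, JQ1 replicate 2 or JQ1 replicate 3 (adjusted p from 0.0616 to 0.0948). The 6 helicase genes together held 166, 130 and 143 TPM with FIDAS-5, 189, 196 and 165 with JQ1 and 388, 447 and 395 with vehicle, so both treatments lay below vehicle.

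Of 45 mitotic genes tested, 4 were higher with JQ1 and 2, the kinases AURKA (-0.80) and PLK1 (-0.69), were higher with FIDAS-5. The 4 became 15 with the replicate block, 11 without JQ1 replicate 3, 2 without JQ1 replicate 1 or 2 and 1 without FIDAS-5 replicate 2 or 3. AURKA lost its call without FIDAS-5 replicate 1 (adjusted p = 0.0510). Cell cycle inhibitors differed by gene: CDKN2B (-2.12) and CDKN2A (-1.11) were higher with FIDAS-5 like CDKN1A (-3.02), and CDKN2C (1.23) and CDKN2D (1.22) were higher with JQ1. Cyclin D1, CCND1, was at 68.6, 53.8 and 52.98 TPM with FIDAS-5, 22.7, 19.04 and 14.7 with JQ1 and 49.1, 44.7 and 46.9 with vehicle, and cyclin D3, CCND3, had the other sign (0.67).

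Clustered histone genes were called in 52 of 63 tested, 39 higher with JQ1 and 13 higher with FIDAS-5 (median 0.58). Their transcripts mostly end in a stem-loop in place of a poly(A) tail, and many copies are nearly identical, so the split between copies is uncertain. The 13 genes higher with FIDAS-5 all belong to the HIST1 cluster, in which 26 of 49 were higher with JQ1. In the smaller HIST2, HIST3 and HIST4 clusters 13 of 14 were called, all higher with JQ1 (median 1.21). HIST2H2BE, one of the polyadenylated members, was at 302, 289 and 277 TPM with JQ1, 45.3, 42.6 and 50.9 with FIDAS-5 and 156, 149 and 188 with vehicle (log2 difference 2.62). By type, 12 of 15 H2A, 11 of 19 H2B, 9 of 13 H3 and 6 of 11 H4 genes were higher with JQ1, whereas of 5 H1 genes 1 was higher with JQ1 and 2 with FIDAS-5. Summed over HIST1, the libraries held 4302, 4611 and 4401 TPM with FIDAS-5 and 6924, 6898 and 6882 with JQ1. The vehicle libraries held 14820, 18762 and 18482 TPM, more than either treatment.

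**Figure D5:**
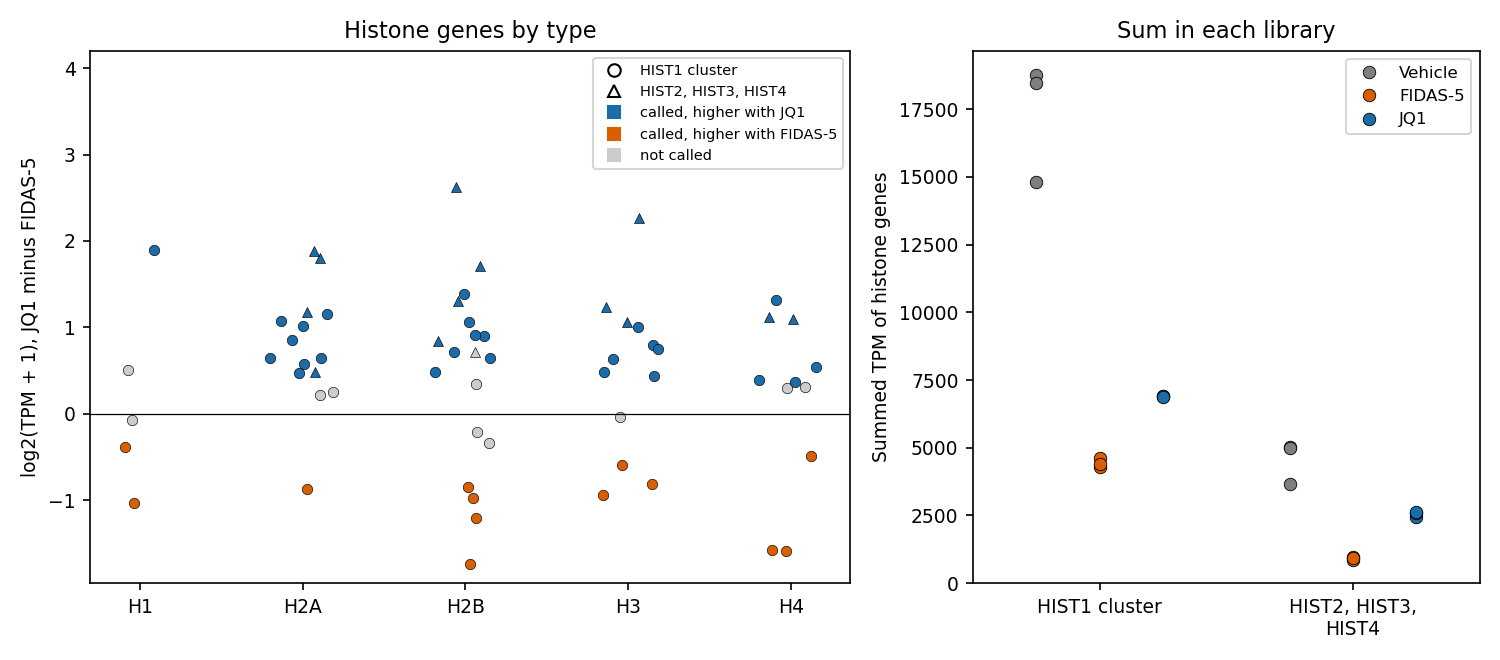
Left, difference in mean log2(TPM + 1), JQ1 minus FIDAS-5, for each tested histone gene by histone type, with HIST1 genes as circles and HIST2, HIST3 and HIST4 genes as triangles. Right, summed TPM of the histone genes of each cluster in each library. Orange points below 0 are circles alone, and both treatments lie below vehicle in both sums.

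Methyltransferases that use S-adenosylmethionine were called in both directions, with a median log2 difference of 0.25, beside 0.05 over all tested genes. Of 39 histone, DNA and arginine methyltransferase genes tested, 8 were higher with JQ1 and 5 with FIDAS-5. Over all tested genes these shares were 16.4% and 18.8%. DNMT3B, a de novo DNA methyltransferase, was at 7.68, 7.78 and 6.81 TPM with JQ1, 1.11, 1.05 and 0.994 with FIDAS-5 and 4.49, 4.43 and 4.49 with vehicle (log2 difference 2.04, adjusted p = 9.24e-05). DNMT1 (0.36) and DNMT3A (-0.18) were not called, EZH2 (0.79) was called only with the replicate block (adjusted p = 0.00255), and EZH1 was higher with JQ1 (6.75 TPM against 2.88 TPM). The arginine methyltransferase PRMT5 (-0.61) and its partner WDR77 (-0.83) were higher with FIDAS-5. The 8 became 5 without FIDAS-5 replicate 3 or JQ1 replicate 1 or 2, and the 5 became 2 or 3 without any library but JQ1 replicate 3. The counts towards JQ1 and FIDAS-5 were 12 and 4 without JQ1 replicate 3. They were 12 and 7 with the replicate block and 16 and 7 with the GC trend removed.

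In the methionine cycle, 5 of 20 tested genes were higher with JQ1 and 6 with FIDAS-5. BHMT2, which remethylates homocysteine, was at 26.8, 23.3 and 27.9 TPM with FIDAS-5, 7.51, 7.45 and 5.99 with JQ1 and 13.7, 22.4 and 17.96 with vehicle, and CBS, the first enzyme of transsulfuration, differed by -1.30. BHMT, which also remethylates homocysteine (1.43), and AHCY, which removes S-adenosylhomocysteine (0.75), were higher with JQ1. Both counts fell to 3 on leaving out single libraries: the first without FIDAS-5 replicate 2 or 3 or JQ1 replicate 1 or 2, the second without FIDAS-5 replicate 1 or 3 or JQ1 replicate 2.

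Folate and serine genes numbered 4 in each direction of 16 tested. The mitochondrial folate enzymes ALDH1L2 (-1.41) and MTHFD1L (-1.13) were higher with FIDAS-5, and the glycine decarboxylase GLDC was at 98.7, 94.9 and 77.8 TPM with JQ1, 29.8, 21.9 and 25.8 with FIDAS-5 and 27.7, 33.4 and 27.99 with vehicle. The 4 higher with FIDAS-5 were 2 without FIDAS-5 replicate 1 or 3 or JQ1 replicate 2. Among 10 polyamine genes, the catabolic SAT1 (1.76), the first enzyme ODC1 (202 TPM against 101 TPM) and its antizyme OAZ1 (0.59) were higher with JQ1, and the oxidase SMOX (-1.56) and spermidine synthase SRM (-1.19) higher with FIDAS-5.

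The 12 genes with the largest differences towards JQ1, among called genes averaging at least 5 TPM with JQ1 and no overlap of libraries, were 7 microRNA symbols, the U1 variant RNVU1-4, the pseudogene GOLGA2P5, and PEG10, FGG and EFR3B. PEG10, an imprinted gene derived from a retrotransposon, was at 1022, 869 and 359 TPM with JQ1, 94.4, 57.1 and 39.2 with FIDAS-5 and 131, 70.7 and 103 with vehicle (log2 difference 3.50, adjusted p = 0.00269). JQ1 replicate 3 was the lowest of its group and still lay above the other libraries. SGCE, the imprinted gene that starts beside it on chromosome 7, had a log2 difference of 1.02 that was called only with all 6 libraries or without JQ1 replicate 3 (adjusted p from 0.0572 to 0.142 without any other library), and CASD1 next to them was called only with the replicate block (0.75, adjusted p = 0.00295). EFR3B, a membrane anchor of a phosphatidylinositol kinase, was at 10.9, 11.4 and 10.5 TPM with JQ1 and under 1 TPM in every other library. RNVU1-4 has near-identical relatives, and its call was lost without FIDAS-5 replicate 3 or any JQ1 replicate (adjusted p from 0.0642 to 0.101). It was at 93.7, 55.3 and 109 TPM with JQ1 and 42.3, 90.5 and 50.96 TPM with vehicle, so these groups overlapped.

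Of the 7 microRNA symbols, 5 had an entry in the RefSeq table, and their mature sequences are shown because they head the list of genes higher with JQ1; capitals mark the seed, bases 2 to 8, and no 2 share one. For a hairpin with mature forms from both arms, the form given is named.
miR-1827: uGAGGCAGuagauugaau
miR-6766-5p: cGGGUGGGagcagaucuuauugag
miR-4434: aGGAGAAGuaaaguagaa
miR-106b-5p: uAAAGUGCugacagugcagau
miR-367-3p: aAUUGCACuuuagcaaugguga
The labels do not describe a small RNA library, so the values below belong to the short hairpin symbols in total RNA and not to the mature forms. MIR1827 was at 78.8, 109 and 109.8 TPM with JQ1, 0, 3.52 and 3.63 with FIDAS-5 and 9.64, 2.83 and 18.2 with vehicle (log2 difference 5.17, adjusted p = 0.00144). MIR106B, within the locus of MCM7, was at 7.5003, 4.42 and 23.2 TPM with JQ1, listed at 0 in all 3 FIDAS-5 libraries and at 8.08, 6.92 and 0 TPM with vehicle. Of its cluster neighbours, MIR25 (0.41) was not called, and MIR93 (-1.39) was called only with the replicate block (adjusted p = 0.0148). MIR6766 and MIR4434 were likewise listed at 0 in all FIDAS-5 libraries, with 15.8, 32.6 and 5.51 and 10.4, 12.8 and 7.71 TPM with JQ1. With vehicle they were at 4.49, 2.598 and 6.81 and at 0, 3.31 and 21.96 TPM, so vehicle overlapped JQ1 for both. The call of MIR367 was lost without FIDAS-5 replicate 2 (adjusted p = 0.0513), as was that of MIR548D2 (0.0608). Vehicle and JQ1 also overlapped for MIR548D2, at 38.05, 41.6 and 40.8 TPM and 98.7, 24.4 and 31.1 TPM.

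MIR1827 lies on chromosome 12 among tested genes higher with JQ1, in a stretch taken to begin at GOLGA2P5, itself a leading gene. Genes before GOLGA2P5 were not examined. From GOLGA2P5 (start at 100156391, GRCh38.p14) the tested genes in order are GOLGA2P5 (28.9, 31.9 and 13.5 TPM with JQ1 against 1.62, 1.41 and 1.46 with FIDAS-5), MIR1827, ACTR6, an actin-related chromatin protein (2.14), DEPDC4 (0.56) and SCYL2 (1.54). The next tested gene, NR1H4, had the other sign (-0.80). DEPDC4 lost its call, with adjusted p from 0.0700 to 0.0943, on omission of any library but FIDAS-5 replicate 1 and JQ1 replicate 3, and SCYL2 without FIDAS-5 replicate 2 (0.0558) or JQ1 replicate 2 (0.0508).

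Protein-coding genes with the next largest differences towards JQ1 are named after their values were seen. The heparan sulfate proteoglycan GPC3, a marker of hepatocellular carcinoma, was at 1920.4, 1879 and 1785 TPM with JQ1, 344, 273 and 344 with FIDAS-5 and 379, 297 and 291 with vehicle (log2 difference 2.54). The JQ1 mean (1862 TPM) stood far above the means of vehicle (323 TPM) and FIDAS-5 (320.4 TPM). The ethanolamine kinase ETNK2 (2.72), the xylulose reductase DCXR (2.56), ornithine aminotransferase OAT (2.51), the dehydrogenase ADHFE1 (2.50) and AMN, a subunit of the vitamin B12 receptor (2.49), followed.

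Of the 12 genes with the largest differences towards FIDAS-5, CYP1A1, NAT8, AADAC, OAS1, GDF15, SLC51B and CYP1B1 are given above. TFF1, a secreted trefoil peptide of the gut mucosa, was at 115, 133 and 86.7 TPM with FIDAS-5, 0.615, 0.556 and 0.562 with JQ1 and 19.6, 17.97 and 16.2 with vehicle (log2 difference -6.13, adjusted p = 2.68e-05). GPX2, the gastrointestinal glutathione peroxidase, was at 203, 118 and 198 TPM with FIDAS-5, 3.71, 5.33 and 4.97 with JQ1 and 67.7, 60.3 and 60.5 with vehicle. FMOD, a small collagen-binding proteoglycan, was at 53.2, 50.4 and 42.9 TPM with FIDAS-5, 1.12, 1.02 and 1.398 with JQ1 and 7.51, 5.43 and 5.2001 with vehicle. Vehicle lay between the treatments for each of these 3 genes. The mucin-modifying enzyme GCNT3 (-5.11) and the brush border protease MEP1A (-4.87) complete the 12.

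Among symbol families, small nucleolar RNAs, which guide modification of ribosomal RNA, were called less often than all tested genes and seldom higher with JQ1. In either direction, 17.1% of 175 C/D box genes and 27.9% of 129 H/ACA genes were called, beside 35.2% of all tested genes. Of the C/D box genes, 26 were higher with FIDAS-5 and 4 with JQ1. Of the H/ACA genes, 34 were higher with FIDAS-5 and 2 with JQ1. The C/D counts were 49 and 20 with the replicate block. The 26 became 15 without FIDAS-5 replicate 3, the 4 became 2 without JQ1 replicate 2 and 7 without JQ1 replicate 3, and the 2 became 8 with the replicate block. The 34 became 47 with the replicate block and 23 without FIDAS-5 replicate 2 or 3 or JQ1 replicate 2. Zinc finger genes named ZNF leaned the other way, with 75 of 344 higher with JQ1 and 20 with FIDAS-5, beside 16.4% and 18.8% of all genes. The 75 became 125 with the replicate block and 22 to 34 without FIDAS-5 replicate 2 or 3 or JQ1 replicate 1 or 2, and the 20 became 10 to 13 without any library but FIDAS-5 replicate 2 or JQ1 replicate 3.

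Markers of other cell types were checked beside these results. The 11 genes marking the hepatocyte lineage of Huh7 summed to 4796 to 6805 TPM with FIDAS-5, 9626 to 13911 TPM with JQ1 and 5303 to 6269 TPM with vehicle, so the labelled cell type was found in every group. Of these 11 genes, 6 were called higher with JQ1 and 2 higher with FIDAS-5. On leaving out single libraries these counts fell to as low as 3 and 1. Of 9 leukocyte markers, PTPRC, CD3E, MS4A1 and ITGAM were among those under 1 TPM in all 6 libraries. The list still summed to 253 to 312 TPM with FIDAS-5 and 19.3 to 28.2 TPM with JQ1, most of it LYZ, lysozyme (253 TPM ± 27.9 with FIDAS-5, 12.4 ± 2.496 with JQ1 and 113 ± 11.7 with vehicle). Of 10 fibroblast and endothelium markers, 7 were under 1 TPM in all 6 libraries, and PECAM1 was at 16.5, 15.3 and 16.5 TPM with FIDAS-5 and 1.61, 1.41 and 1.28 with JQ1, while COL1A2, the other tested marker, was called higher with JQ1 (1.58, 1.34 and 1.34 TPM against 0.555, 0.499 and 0.640). Cholangiocyte markers summed to 18.8 to 30.9 TPM with FIDAS-5 and 32.4 to 46.5 TPM with JQ1, with KRT7, CFTR and AQP1 under 1 TPM. Of the 4 tested, 1 was called higher with JQ1 and 1 higher with FIDAS-5. The count towards JQ1 was 0 without FIDAS-5 replicate 3 or JQ1 replicate 1 or 2. The part of LYZ, PECAM1 and COL1A2 differences in the results above was not tested.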

How the data were processed

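RNA from 9 libraries of Huh7 cells was sequenced, 3 per group. The authors deposited TPM, transcript levels scaled for length and library total, per gene symbol, made with Salmon on hg38 per the submitters' processing notes; the version and the annotation are not given in the sources used here. TPM scales out library size, so depth is unknown and no counting interval is given. A level of 0 is given as listed.

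The 3 JQ1 and 3 FIDAS-5 libraries were fitted with limma 3.58.1 in R 4.3.3 on log2(TPM + 1), with group means as the design, moderation without a trend and Benjamini-Hochberg adjustment over all 13100 genes tested. The pseudocount of 1 understates differences of low genes. A gene was called at an adjusted p under 0.05. Vehicle libraries were in no test. Figures were drawn with matplotlib 3.10.9 from tables made in Python 3.11.15.

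Replicates of the same number deviated together (correlations 0.295, 0.124 and 0.468). FIDAS-5 replicate 1 with JQ1 replicate 2 (0.183) exceeded the same-number value of replicate 2. Since every same-number value was above 0.1, a fit with the replicate number as a block was run. This pairing is read from the data, since the labels name no shared batch. Alternatives were another pseudocount, filter, scaling, moderation, set of libraries and each library left out. Named genes were the MAT and BET genes, HEXIM1 and MYC, the 12 leading genes per direction with a mean of at least 5 TPM, up to 4 members per list with the smallest adjusted p, and others needed to describe a list. Some of these genes are not reported here. Those others, and the genes named in the closing section, were chosen after their values were seen. The comparison, its 49 lists and 8 symbol families were chosen with earlier results of these data known.

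Of 27800 symbols, 25681 matched a current RefSeq symbol and 1134 a synonym (GRCh38.p14), which gave positions, start windows and microRNA sequences. GC content came from GENCODE transcripts for 12638 tested genes.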

Additional observations from a re-analysis of the deposited data

How the results depend on the processing

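The 4607 calls were 4467 with a pseudocount of 0.1, 5425 with no filter, 5410 with median-of-ratios scaling, 5692 with quantile normalization, 5142 over protein-coding genes alone, 4695 with all 9 libraries fitted and 4617 with a trend in the moderation. A filter of 5 TPM tested fewer genes and left 2987 calls, 1330 of them higher with JQ1. With the replicate block there were 6748 calls, 3523 higher with JQ1. Beyond the values given beside results, the block changed no other call of a gene described above. Leaving out each library in turn gave 2987 to 5289 calls, 1175 to 3067 higher with JQ1 and 1812 to 2260 higher with FIDAS-5. Why single libraries moved these counts was not tested.

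Chosen after seeing the data, removal of each library's trend on GC content gave 7091 calls (3484 higher with JQ1, 3607 with FIDAS-5), and 8072 together with the replicate block (4037 and 4035); without both replicates 3 there were 4662 (2545 and 2117). With the GC trend removed, the counts towards FIDAS-5 were 35 in ribosome biogenesis, 29 in the proteasome, 20 in the endoplasmic reticulum list and 10 in heat shock genes. No call shared with these settings changed direction. Of the named genes, those that lost their call numbered 4 with the other pseudocount, 8 with no filter, 9 with median-of-ratios scaling, 7 with quantile normalization, 4 over protein-coding genes and 10 with all 9 libraries, against 6 to 38 on leaving out 1 library. With TPM alone, the depth behind low levels cannot be given, and levels near 0 carry no error of their own.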

Other observations

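Genes typical of gut and mucosal epithelium were lower with JQ1 than with FIDAS-5; they were picked after their values were seen, so their direction was fixed by the choice. The trefoil peptides TFF1, TFF2 and TFF3, the transmembrane mucin MUC13, the intestinal cadherin CDH17, the tetraspanin TSPAN8, the mucus chaperone AGR2, S100P, MEP1A, CEACAM1, GCNT3 and EPS8L3 together held 615, 593 and 494 TPM with FIDAS-5, 19, 23 and 17 TPM with JQ1 and 149, 168 and 151 TPM with vehicle. Vehicle lay between the treatments in this sum and in the mean of each gene but TFF3, which was at 4.896 TPM with JQ1 and 2.92 with vehicle. TFF3, TFF2 and TFF1 are neighbours on chromosome 21 and differed by -2.05, -3.52 and -6.13 on the log2 scale. AGR2 was at 28.1, 23.7 and 20.4 TPM with FIDAS-5 and 0.375, 0.451 and 0.730 with JQ1, and MUC13 at 26.02, 20.2 and 15.4 and 0.284, 0.251 and 0.0969 TPM.

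Lysosome and autophagy genes were called higher with JQ1 in 14 of 42 tested and higher with FIDAS-5 in 7. The proteases CTSB (1.44) and CTSA (1.24), glucuronidase GUSB (1.36) and the growth factor precursor GRN (0.82) were higher with JQ1, and GABARAPL1 (-1.53), CTSH (-1.09) and GLA (-1.25) higher with FIDAS-5. Metallothioneins, which bind zinc and copper, split within their cluster on chromosome 16: MT2A was at 373, 389 and 404 TPM with JQ1, 137, 67.1 and 142 with FIDAS-5 and 56.6, 27.5 and 70.3 with vehicle, MT1X differed by 1.64, and MT1A had the other sign (-0.92); these genes share much sequence. Among imprinted genes, PHLDA2 was at 42.7, 37.1 and 40.8 TPM with FIDAS-5, 1.28, 1.55 and 0.938 with JQ1 and 4.08, 4.29 and 3.33 with vehicle, opposite to PEG10 (3.50) and IGF2 (1.29). IGFBP1, a secreted binding protein of insulin-like growth factors, was at 20.6, 22.4 and 18.5 TPM with FIDAS-5 and 0.144, 0.0866 and 0.184 with JQ1.

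In the matrix and adhesion list, 11 of 41 tested genes were higher with JQ1 and 12 with FIDAS-5, and the 11 became 3 to 6 without FIDAS-5 replicate 2 or 3 or JQ1 replicate 1 or 2. Fibronectin FN1 was at 1191, 1066 and 867 TPM with JQ1, 622, 362 and 512 with FIDAS-5 and 225, 117 and 145 with vehicle, a call lost without JQ1 replicate 2 (adjusted p of 0.0530). Osteopontin SPP1 was at 16.01, 13.1 and 8.79 TPM with FIDAS-5 and 0.0383, 0 and 0.0280 with JQ1, and the gap junction gene GJA1 at 29.4, 23.8 and 11.5 and 1.39, 1.11 and 0.413 TPM.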
